A study of Danio rerio with 12 samples.

Results

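Transcripts of 74 genes for proteins of the cytosolic ribosome, and of a few close relatives, were followed along the paraxial mesoderm of zebrafish embryos, the tissue that forms the somites. The members are the probe sets with 1 gene symbol of the form rpl or rps followed by a number, with stalk proteins (*rplp*) and *rpsa* included and the S6 kinases left out. They comprise 79 of the 15502 probe sets that are not controls and 74 of the 8793 genes with a probe set of their own; where a gene had several, the one with the highest mean over the arrays stood for it. Of the 74 genes, 45 carry a large subunit symbol and 29 a small subunit symbol, and all 74 passed the filter on low values. The rule is a rule on names: *rps19bp1* encodes a protein that binds Rps19 and *rpl7l1* a relative of Rpl7 found in immature large subunits, and neither is a standard protein of the mature ribosome.

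The embryos were wild-type AB at the 12-somite stage, grown at 23 °C, and the labels name no transgene or treatment. Hand-dissected pieces came from the center of the tailbud (position 1), the flank of the tailbud (position 2), the posterior, center and anterior presomitic mesoderm or PSM (positions 3, 4 and 5) and the last formed somites (position 6). Each position had 2 arrays that the labels call biological replicates, 12 in all, and at position 2 replicate 1 is the left flank and replicate 2 the right. The sources used here do not give the number of embryos behind a sample. The pieces are bulk tissue, so fewer cells of a type and less RNA per cell cannot be told apart.

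The ribosome is built from ribosomal RNA and one copy of most of its proteins, and its genes are among the most strongly expressed in growing cells. Vertebrate messenger RNAs for these proteins begin with a run of pyrimidines, the TOP motif, through which mTORC1 and Larp1 regulate their translation together. In the paraxial mesoderm, progenitor cells leave the tailbud, pass through the PSM and become somite cells that grow and form muscle. Arrays measure the transcript pool and not its translation.

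The labelled positions were checked against their markers. Of 11 tested progenitor genes of the tailbud and PSM, 10 fell from position 1 to position 6 and 0 rose with limma (0 higher at an unadjusted p under 0.05), and of 13 somite and muscle genes 9 rose and 0 fell (0 lower unadjusted). Median signals of the arrays lay between 27.3 and 68.3 although all 12 shared a trimmed mean of 150, and both arrays of position 6 had the lowest medians, 27.3 and 33.7. The 99th percentile of signal was highest there, at 3207 and 3417, beside 2758 and 2835 at position 1. The correlation of replicates over all tested probe sets, which are not independent points, was lowest at position 2 (r = 0.831) and highest at position 6 (r = 0.968).

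The ribosomal protein genes lay higher at the somite end of the axis than at the tailbud end, by a small and similar amount in most of them, and 20 of the 74 changes were below 0 with quantile normalization. Along the linear trend over the 6 positions 31 of 74 rose and 0 fell with limma (59 higher and 0 lower at an unadjusted p under 0.05), against 7.1% of all tested probe sets called higher and 6.12% called lower. Among 3025 other probe sets in the top 20% by mean level, called bright here, 15% were called higher and 10.8% lower. This set is not matched to the members' level. The 80th percentile of signal lay between 217 and 232.5 on the 12 arrays, and the median signal of the members between 4337 and 6446. The members' median fitted log2 change from position 1 to position 6 was 0.45, with quartiles of 0.35 and 0.61, beside -0.13 for all 10851 tested probe sets. Both arrays of position 6 lay above both of position 1 in 72 of 74 genes, against 22.3% of all tested probe sets and 31.6% of other bright ones, and 0 of 74 had both below, against 33.5%. The exceptions to the first count were *rps15* and *rpl22l1*.

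The direction was shared more widely than the calls, and it depended on how the arrays were scaled. All 74 changes were above 0 with the deposited scaling, with median centring and with centring on bright probe sets, and 54 were above 0 with quantile normalization. Both centrings add 1 constant to all changes, so they are not separate tests of the direction. With the deposited scaling 42.4% of all tested probe sets and 1582 of 3025 other bright ones were above 0. These shares are not given here for the other scalings. Quantile normalization, which forces 1 distribution of signals on all arrays, gave a member median of 0.10 and 11 called genes, all among the 31. The median of all probe sets moved from -0.13 as deposited to 0.01 with quantile normalization and 0.24 with median centring, and the members lay 0.58, 0.09 and 0.58 above it. The distance as deposited and with median centring is the same by construction. Without an intensity trend in the variances 2 genes were called, *rpl13* and *rpl27a*. Of all tested probe sets 3.77% were then called higher, and 6.36% with quantile normalization. The median SD within positions was 0.15 for members, 0.25 for other bright probe sets and 0.47 for all tested ones, on the log2 scale.

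**Figure D1:**
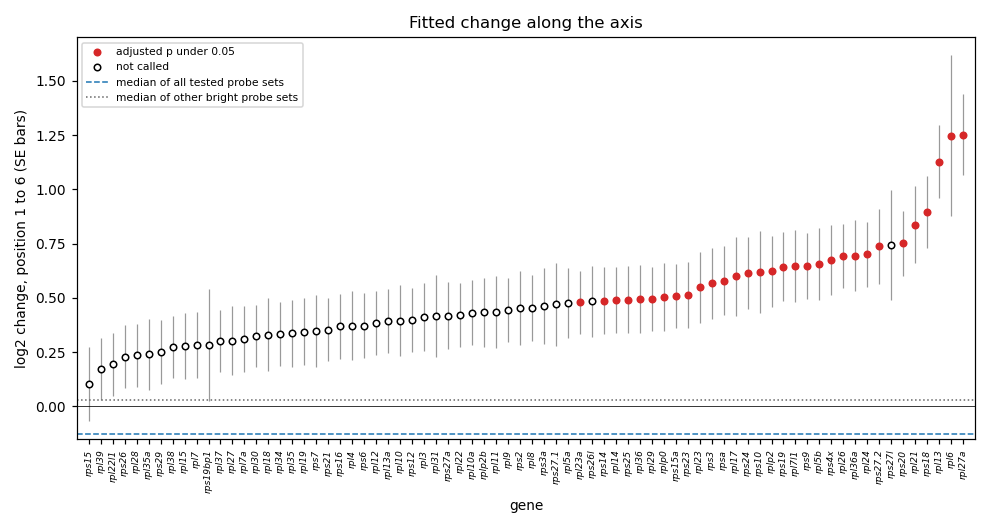
Fitted log2 change from position 1 to position 6 (vertical axis) for each of the 74 genes (horizontal axis), as points with SE bars; filled points passed an adjusted p of 0.05. With the deposited scaling all points lie above 0 (54 of 74 with quantile normalization), from 0.10 for *rps15* to 1.25 for *rpl27a*. The dashed line of all tested probe sets, of which 42.4% lie above 0 with the deposited scaling, is at -0.13. The dotted line of other bright probe sets is at 0.03.

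Array by array, the median of the member genes, each centred on its own mean over the 12 arrays, was -0.29 and -0.11 on the log2 scale at position 1, -0.17 and 0.00 at position 2, -0.02 and -0.12 at position 3, -0.05 and 0.01 at position 4, 0.11 and 0.04 at position 5 and 0.26 and 0.38 at position 6. The 2 somite arrays were the highest of the 12, and replicates of 1 position differed by up to 0.18. The same median over other bright probe sets was 0.08 and 0.00 at position 1 and 0.10 and 0.02 at position 6, so the ends overlapped. Summed over the 74 genes, the members carried 9.28% and 10.3% of the signal at position 1, between 10.3% and 11.7% at positions 2 to 5, and 12.8% and 13.9% at position 6. These shares are of array signal, which is not a molar amount. The control probe set AFFX-CreX-3_at, left out of the fit, also read higher at the somite end than at the tailbud end. It measured 3947.5 and 4103.4 at position 1, 2188.2 to 5457.4 over positions 2 to 5, and 5355 and 6597.3 at position 6. Another, AFFX-BioB-3_at, measured 73.2 and 87.2 at position 1 and 63.4 and 85.9 at position 6. The part of such a shift in the members' changes was not tested.

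**Figure D2:**
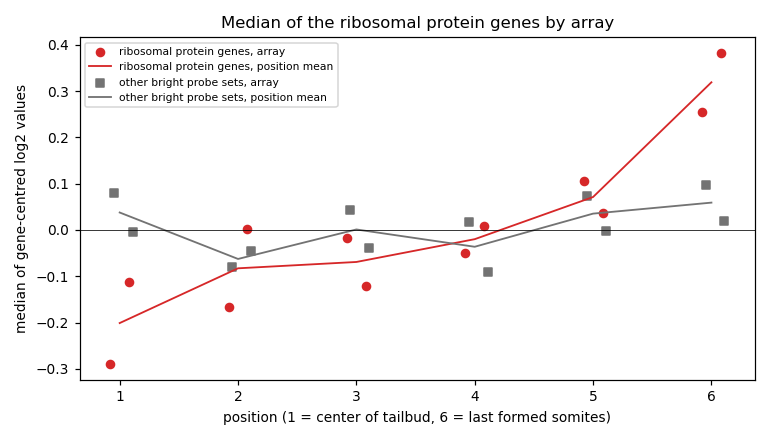
Median of gene-centred log2 values (vertical axis) on each array by position (horizontal axis), for the ribosomal protein genes (circles) and 3025 other bright probe sets (squares), with lines through the position means. The circles of position 6 lie at 0.26 and 0.38, above the 10 other arrays, and those of position 1 at -0.29 and -0.11.

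The profile over the positions was uneven. Of the 74 genes, 67 had their highest position mean in the somites, against 17.2% of all tested probe sets, and 46 had their lowest in the center of the tailbud, against 17.5%. With the flank counted too, 63 had their lowest mean in the tailbud, against 35.3%. In 45 genes both somite arrays exceeded each of the 10 other arrays, against 7.2% of all tested probe sets and 14.4% of other bright ones. The median log2 step was 0.12 from position 1 to 2, -0.02 from 2 to 3, 0.05 from 3 to 4, 0.11 from 4 to 5 and 0.25 from the anterior PSM to the somites. The last of these was called in 2 genes, *rpl6* and *rpl27a*, against 0.7% of all tested probe sets called higher, and 0 members were called lower, against 0.507%. For other bright probe sets the median steps were, in the same order, -0.12, 0.05, -0.03, 0.08 and 0.02.

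At the 4 earlier steps limma called 0 members in either direction, where 0.0184% to 1.11% of all tested probe sets were called in 1 direction. At an unadjusted p under 0.05 the step from 1 to 2 had 5 higher and 2 lower, and each of the next 3 steps had 1 higher and 0 lower. From the anterior PSM to the somites 17 were higher and 0 lower unadjusted. The shares of all tested probe sets above are of adjusted calls, so these unadjusted counts cannot be set against them. Leaving out 1 array moved the call at this last step to 0 genes without either array of position 5 or without replicate 2 of position 6.

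Tested for a difference of any shape over the 6 positions (F test), limma called 12 of 74 members, 16.2%, against 11.2% of all tested probe sets and 21.5% of other bright ones, with the members' share between them. Comparing the ends directly, position 6 exceeded position 1 in 26 genes and was below it in 0 with limma (58 and 0 unadjusted), against 5.41% of all tested probe sets called higher and 4.56% called lower (11.4% and 8.93% of other bright ones), with a median difference of 0.52. Of the 74 genes 24 were called both ways, along the trend and between the ends.

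Single arrays carried part of these counts. Each omission listed here for the trend also lowered the share of all tested probe sets called higher, which was 7.1% with all 12 arrays. Such shares for the end comparison and the F test are not given here. The 31 genes of the trend became 14 without replicate 1 of position 1, 17 without replicate 1 of position 5, 17 without replicate 2 of position 5 and 13 without replicate 2 of position 6. The 26 genes of the end comparison became 7 without replicate 1 of position 1 and 7 without replicate 2 of position 6. The 12 genes of the F test became 7 and 6 without replicate 1 and replicate 2 of position 3, 7 without either array of position 5, and 5 and 4 without replicate 1 and replicate 2 of position 6. The median change stayed between 0.38 and 0.52.

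**Figure D3:**
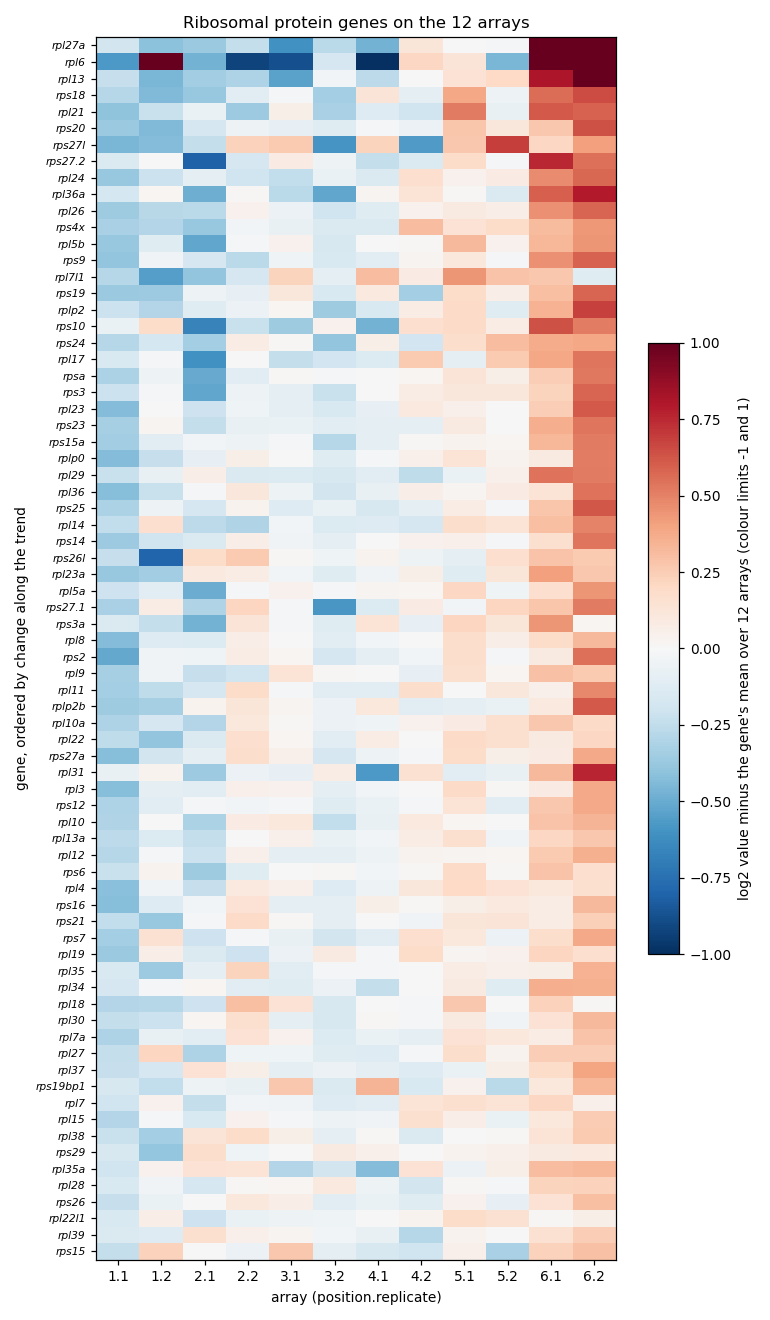
Log2 value minus the gene's mean over 12 arrays (colour, red high and blue low, with colour limits of -1 and 1) for each of the 74 genes (rows, ordered by change along the trend) on each array (columns, position and replicate). The 2 right columns, the somites, are red in nearly all rows, and the left column, replicate 1 of position 1, is blue in all 74 rows.

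The 3 largest rises belonged to genes of the large subunit. *rpl27a*, which encodes a protein of the large subunit, had signals of 902.5 and 768 at position 1, 794 and 869.6 at position 2, 673 and 849 at position 3, 736.5 and 1116 at position 4, 1024 and 1015 at position 5 and 2159 and 2720.1 at position 6. The 10 arrays outside the somites lay at or below 1116 and both somite arrays at or above 2159. Its change along the trend was 1.25 ± 0.19 (SE, limma adjusted p = 9.42e-05), and its step from the anterior PSM to the somites was 1.24 ± 0.22 (SE, limma adjusted p = 0.00639).

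*rpl13*, another gene of the large subunit, measured 1823 and 1559.5 at position 1, 1683.5 and 1727 at position 2, 1471 and 2104 at position 3, 1784 and 2149 at position 4, 2362.5 and 2455 at position 5 and 3757 and 4326 at position 6. The somite arrays again stood above all others, and the arrays of position 5 came next. The fitted change was 1.13 ± 0.17 (SE, limma adjusted p = 8.78e-05), and the last step of 0.74 was not called (adjusted p = 0.078).

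*rpl6*, whose protein sits on the outer face of the large subunit, measured 1035 and 3278 at position 1, 1112.5 and 808 at position 2, 835 and 1372 at position 3, 617 and 1783 at position 4, 1696 and 1124 at position 5 and 4697 and 5299.9 at position 6. Here the replicates lay far apart, most at position 1, where the second array stood far above the first, and at position 4. The somite arrays were still the highest of the 12. The fitted change was 1.25 ± 0.37 (SE, limma adjusted p = 0.0291) and the last step 1.84 ± 0.44 (SE, limma adjusted p = 0.0427), and the trend was not called in 9 of 25 other settings (range 0.66 to 1.84).

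Set against the median of the members on the same array, a difference that a constant shift of an array does not change and quantile normalization can, 60 of 74 genes had a trend within 0.25 of it in either direction, and 3 departed by more than 0.5: these were the same 3 genes, all upward. *rpl27a* departed by 0.85 on the log2 scale from position 1 to 6, *rpl6* by 0.85 and *rpl13* by 0.73. The lowest departure was -0.30, that of *rps15*. This measure takes 1 constant, the trend of the members' array medians, from the trend of each gene. It keeps the order of the genes, so the top 3 and the lowest gene repeat the ranking of the fitted changes.

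**Figure D4:**
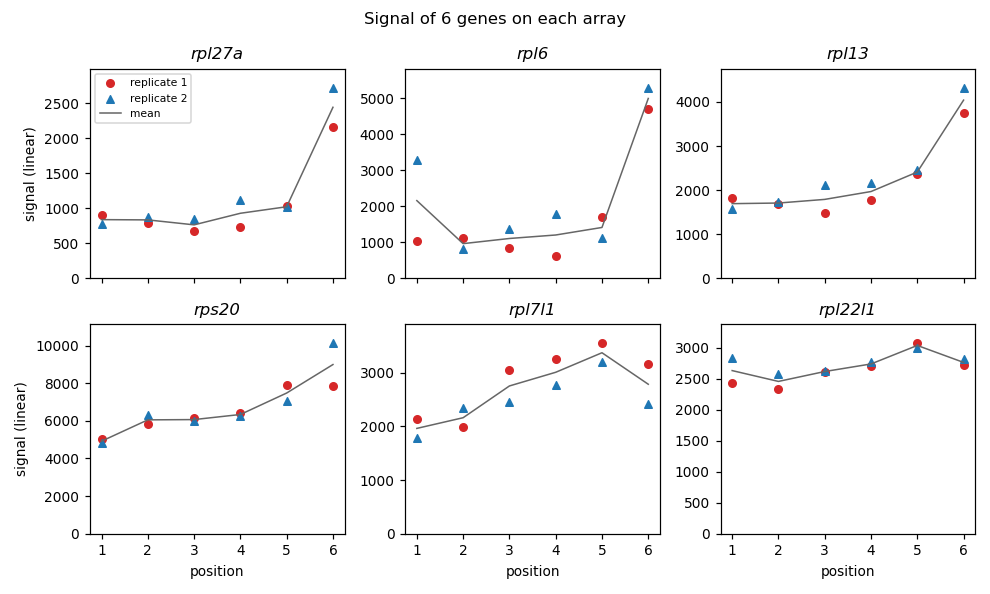
Signal on a linear scale (vertical axes, starting at 0) by position (horizontal axes) for 6 genes, with a point per array (circles replicate 1, triangles replicate 2) and a line through the position means. *rpl27a*, *rpl6*, *rpl13* and *rps20* have their highest mean at position 6, *rpl7l1* has its highest mean at position 5 and *rpl22l1* lies between 2342 and 3074 on all arrays.

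Among small subunit genes *rps18* and *rps20*, which encode proteins of the head of that subunit, had the largest rises. *rps18* measured 2914 and 2619 at position 1, 2728 and 3293 at position 2, 3500.1 and 2803 at position 3, 3892 and 3312 at position 4, 4661 and 3436 at position 5 and 5232.5 and 5586 at position 6. All somite values exceeded all others, and replicate 1 of position 5 lay well above replicate 2. *rps18* changed by 0.90 ± 0.17 (SE, limma adjusted p = 0.00092) along the trend.

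*rps20* measured 5038 and 4801 at position 1, 5807 and 6299 at position 2, 6150.5 and 5986 at position 3, 6430 and 6248 at position 4, 7899.8 and 7059.8 at position 5 and 7861 and 10127 at position 6. Its replicates lay close at positions 1 to 4, and the first somite array, at 7861, lay just below the first array of position 5, at 7900. The fitted change was 0.75 ± 0.15 (SE, limma adjusted p = 0.00174). Of 6 genes grouped here under the head, 3 rose (*rps18*, *rps19* and *rps20*), and *rps15*, *rps16* and *rps29* were not called. This group is not a full list of head proteins. It leaves out the genes of the beak and of the channel entry, which are given below.

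*rps15* had the smallest change of all members. Its signals were 5219 and 7242 at position 1, 6173 and 5905 at position 2, 7432 and 5805 at position 3, 5511 and 5359.5 at position 4, 6369 and 4927 at position 5 and 7215 and 7553 at position 6. The ends overlapped, since the second array of position 1 exceeded the first of position 6. Its fitted change of 0.10 was not called (adjusted p = 0.772), and it turned to -0.29 with quantile normalization and to -0.065 without replicate 1 of position 1.

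At the beak of the small subunit, which borders the channel where messenger RNA enters, *rps10* rose and *rps12* and *rps27a*, the last made as a fusion with ubiquitin, were not called. *rps10* measured 2895 ± 358 at position 1, 2059.8 ± 455 (SD, n = 2) at the tailbud flank and 4137 ± 251 in the somites. Its lowest position was thus the flank and not the center, and its change was 0.62 ± 0.19 (SE, limma adjusted p = 0.0352), not called in 12 of 25 other settings. For the proteins that line the entry of the channel, *rps3* (0.57, limma adjusted p = 0.0255) and *rps9* (0.65, limma adjusted p = 0.00613) rose and *rps2* had 0.45 (adjusted p = 0.0956). Of 6 genes for the platform, where messenger RNA leaves, 2 rose. These were *rps14*, with 0.49 along the trend (limma adjusted p = 0.0409), and *rpsa*. With quantile normalization, either centring, no offset or no filter *rps14* was not called.

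*rpsa*, also known as the laminin receptor gene, measured 5892 and 7106.5 at position 1, 5186.5 and 6845 at position 2, 7406 and 7274 at position 3, 7337 and 7469 at position 4, 8045 and 7676 at position 5 and 8729.7 and 10583.5 at position 6. Its lowest array was the left flank of the tailbud and both somite arrays were the highest. It changed by 0.58 ± 0.16 (SE, limma adjusted p = 0.0182), and it was not called in 6 of 25 other settings.

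In the large subunit 17 of 45 genes rose, with a median of 0.43, beside 14 of 29 and a median of 0.49 in the small subunit; the difference between subunits was not tested. Around the exit of the tunnel through which the new protein chain leaves, 3 of 10 genes rose, *rpl17*, *rpl23a* and *rpl26*. *rpl26* measured 3909 and 4119.8 at position 1, 4135 and 5153 at position 2, 4794.5 and 4349 at position 3, 4599 and 5162 at position 4, 5314 and 5229.8 at position 5 and 6880.5 and 7491.5 at position 6. Its somite arrays were the highest, and the change was 0.69 ± 0.15 (SE, limma adjusted p = 0.00324). *rpl39*, whose protein lies in the tunnel wall, measured 2778 ± 27.3 at position 1 and 3503 ± 161 at position 6 (SD, n = 2), a change of 0.17 that was not called (adjusted p = 0.504) and was -0.035 with quantile normalization.

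Other large subunit genes that rose were *rpl21*, *rpl24*, *rpl29* and *rpl36a*. *rpl24*, whose protein forms a bridge to the small subunit, measured 3446 and 3869 at position 1, 4229.7 and 3912 at position 2, 3784.5 and 4279.8 at position 3, 4056 and 5036 at position 4, 4631 and 4768 at position 5 and 6239 and 6712 at position 6. It changed by 0.70 ± 0.15 (SE, limma adjusted p = 0.00312), with both somite arrays above the rest. *rpl21* measured 1949.8 and 2215 at position 1, 2473 and 2011 at position 2, 2698 and 2059 at position 3, 2366 and 2254 at position 4, 3714.5 and 2454 at position 5 and 3965 and 3905 at position 6. Its first array of position 5, at 3714.5, was near the somite arrays and the second, at 2454, was not. The change was 0.84 ± 0.18 (SE, limma adjusted p = 0.00288), and it was 0.24 (limma adjusted p = 0.633) when its dim second probe set was averaged in.

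*rpl36a*, whose protein lies near the site where spent tRNA leaves, was lowest in the posterior PSM, with 2642 ± 323, after 3284 ± 318 (SD, n = 2) at position 1 and before 5628 ± 548 in the somites. It changed by 0.70 ± 0.16 (SE, limma adjusted p = 0.0069). *rpl29* stayed between 2506 and 3129 on the 10 arrays outside the somites and measured 4348 and 4294 in them. Its change was 0.49 ± 0.15 (SE, limma adjusted p = 0.028), and it was not called in 8 of 25 other settings.

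The stalk of the large subunit recruits the GTPases of translation, with Rplp0 at its base and the acidic proteins Rplp1 and Rplp2 along it. *rplp0* measured 6525 and 7476 at position 1, 8293.5 and 9164 at position 2, 8824 and 8087 at position 3, 8707 and 9121 at position 4, 9678 and 8999.8 at position 5 and 9349.8 and 12534.5 at position 6. One somite array, at 12534.5, stood far above the other, at 9349.8, which lay below the first array of position 5. The change was 0.50 ± 0.16 (SE, limma adjusted p = 0.0376), and it was not called in 14 of 25 other settings. *rplp2* rose by 0.62 ± 0.16 (SE, limma adjusted p = 0.0144), from 2558 ± 101 to 4401 ± 717 (SD, n = 2), and *rplp2b* had 0.43 (adjusted p = 0.082). No member carried the symbol *rplp1*.

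Rpl5 and Rpl11 bind 5S ribosomal RNA in the large subunit, and outside the ribosome they bind Mdm2, the regulator of p53. *rpl5b* measured 5281 and 6324 at position 1, 4784 and 6776 at position 2, 7081 and 6150.2 at position 3, 6833 and 6920.4 at position 4, 8588 and 7060 at position 5 and 8641 and 9337 at position 6. It rose by 0.66 ± 0.17 (SE, limma adjusted p = 0.0112), while its paralog *rpl5a* had 0.48 (adjusted p = 0.0587) and *rpl11* 0.43 (adjusted p = 0.0942). Of 25 other settings, *rpl5b* was not called in 5, among them quantile normalization with 0.25 (limma adjusted p = 0.16), and *rpl5a* was called in 4.

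Paralogs were compared by the difference of their log2 values on each array, which cancels a constant shift of an array; quantile normalization, which is not such a shift, was not applied to these differences. The difference *rpl5a* minus *rpl5b* changed by -0.18 over the axis (two-sided permutation test, p = 0.0144, adjusted p = 0.101 over 7 pairs). It lay between -0.50 and -0.17 on the 12 arrays. Of the 7 pairs measured, none passed after adjustment, at adjusted p between 0.101 and 0.986, and 1 had an unadjusted p under 0.05.

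*rpl22l1*, the paralog of *rpl22* that can take its place in the ribosome, measured 2432 and 2833 at position 1, 2342 and 2572 at position 2, 2609 and 2625 at position 3, 2713 and 2765 at position 4, 3074 and 3001 at position 5 and 2716.5 and 2812 at position 6. The ends overlapped and the highest mean was at position 5. Its change was 0.19 (adjusted p = 0.443), beside 0.42 (adjusted p = 0.0697) for *rpl22*. The difference *rpl22* minus *rpl22l1* changed by 0.23 (permutation p = 0.121, adjusted p = 0.282).

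Among the *rps27* genes, *rps27.2* rose by 0.74 ± 0.17 (SE, limma adjusted p = 0.00641), from 1952 ± 136 at position 1 and 1501 ± 466 at position 2 to 3253 ± 325 (SD, n = 2) in the somites. *rps27.1* had 0.47 (adjusted p = 0.121) and *rps27l* 0.74 (adjusted p = 0.0614). *rps27l* had the largest SE of the 3, and its replicates at positions 3, 4 and 5 lay apart, at 571.5 and 312, 555 and 316 and 576 and 775. In the pair *rps26* and *rps26l*, *rps26* had 0.23 (adjusted p = 0.356), or -0.075 with quantile normalization, and *rps26l* 0.48 (adjusted p = 0.0578), and in the end comparison *rps26l* was higher at position 6 (limma adjusted p = 0.0118).

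*rpl7l1*, the assembly relative, followed another course than most members. It measured 2141 and 1781 at position 1, 1988 and 2332 at position 2, 3054 and 2448 at position 3, 3248 and 2764 at position 4, 3547 and 3192 at position 5 and 3157 and 2409 at position 6. Its mean was highest, at 3369.6 ± 251, in the anterior PSM and was 2783 ± 529 (SD, n = 2) in the somites. The trend was called, at 0.65 ± 0.17 (SE, limma adjusted p = 0.0125), and the direct difference of the ends, 0.50, was not (adjusted p = 0.138). *rpl7* itself also had its highest mean in the anterior PSM, 6096 ± 78.8 beside 6017 ± 474 (SD, n = 2) in the somites. Its change was 0.28 (adjusted p = 0.255), or -0.076 with quantile normalization. *rps19bp1* had 0.28 (adjusted p = 0.558) at signals between 162.5 and 253.5.

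Probe sets of 1 gene were compared where the array held several. *rps27.1* had 3 probe sets, with changes of 0.47 (adjusted p = 0.121), 0.41 (adjusted p = 0.188) and 0.87 (adjusted p = 0.00169), so the call of this gene depends on the probe set. *rpl3* had 0.41 (adjusted p = 0.0963) and 0.60 (adjusted p = 0.023), and its first value was -0.022 with quantile normalization. The 2 probe sets of *rps19bp1* had opposite signs, 0.28 and -0.91, neither called, and the second probe set of *rpl21*, at a mean signal of 18.3, was not tested.

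Gene lists around the ribosome were counted in the same fit. They were chosen with earlier results of these data known, and a list's count is a description. Beside these counts, 7.1% of all tested and 15% of other bright probe sets were called higher. Of all tested probe sets 6.36% were called higher with quantile normalization and 3.77% without an intensity trend in the variances. Of 89 tested genes for ribosome biogenesis 53 rose and 0 fell (0 lower unadjusted) with limma, with a median of 0.82. With quantile normalization 47 of these 89 rose and the median was 0.75, beside 11 of 74 and 0.10 for the ribosomal protein genes, and without an intensity trend in the variances 27 of 89 rose. The largest rises were *surf6*, a nucleolar protein, from 386 ± 155 to 1898 ± 98.6 (SD, n = 2), and *polr1a*, which encodes the largest part of the polymerase that makes ribosomal RNA, with 2.10 ± 0.45 (SE, limma adjusted p = 0.0029). Of 42 other genes whose messenger RNAs are known TOP messages in mammals 11 rose and 0 fell (0 lower unadjusted), with a median of 0.39; with quantile normalization 7 rose and the median was 0.25.

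In that list *eif4a2*, an RNA helicase of initiation, rose from 388 ± 17.0 to 1124 ± 285 (SD, n = 2; 1.51 ± 0.23 SE, limma adjusted p = 0.000115) and *eif4a1b* by 1.23 ± 0.23 (SE, limma adjusted p = 0.00102). For the next lists, 7.1% of all tested and 15% of other bright probe sets were called higher. Of 18 regulators around mTORC1 3 rose and 0 fell (2 lower unadjusted), with a median of 0.38, and with quantile normalization 3 rose and 1 fell. Among them were *eif4ebp3l*, an inhibitor of initiation, and *larp1b*, a relative of Larp1, from 394 ± 12.7 to 786 ± 77.5 (SD, n = 2). Of 16 factors that act on the new chain 3 rose and 0 fell (0 lower unadjusted), with a median of 0.17, and 1 rose with quantile normalization. They were led by *naca*, with 1.01 ± 0.18 (SE, limma adjusted p = 0.000548), and *serbp1b*. The TOP list also holds 4 of these 16 genes, *btf3*, *btf3l4*, *naca* and *rack1*.

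Markers of other tissues did not run evenly along the axis. Summed signals of 21 epidermal genes were 1570 to 2243 at position 1, 5076 to 12433 over positions 2 to 5 and 1391 to 3984 at position 6. Those of 13 notochord genes were 825 to 3482 at position 1 and 481 to 540.3 at position 6, and 245 to 770 between, with 3482 on the second array of position 1, where *rpl6* was also high. Those of 18 neural tube genes were 4097 to 7184 and 3983 to 4234 at the same ends, with 2444 to 5572 between. Those of 13 yolk and endoderm genes were 2312 to 2500.4 at position 1, 3994 to 6190.2 over positions 2 to 5 and 2428 to 2705 at position 6. Those of 13 blood and endothelial genes were 438 to 488 at position 1, 704 to 7383.5 over positions 2 to 5, highest at position 4, and 2402 to 2580 at position 6. In the order of these lists, 3, 8, 9, 8 and 0 genes had a mean under 12.2, the offset, at position 6. Single genes made up much of some sums. Among the neural tube genes *cdh2* had means of 3588 at position 1 and 2864 at position 6. In that list *sox2* fell from 356 ± 21.4 to 5.1 ± 1.98 and *zic2b* rose from 433 ± 459 to 1002 ± 188 (SD, n = 2). The other tested genes of the neural tube list were not called along the trend. Between the ends, 1 of its 11 tested genes was called higher and 3 lower, against 5.41% and 4.56% of all tested probe sets. Among the yolk and endoderm genes *apoc1* had 2220 at position 1 and 2459 at position 6. Of 13 tested blood and endothelial genes 6 rose and 0 fell, with a median of 2.00, led by *hbbe3* (4.27) and *hbae3* (4.19). At position 1, 3 genes of that list had a mean under 12.2. Among 18 tested epidermal genes *krt4* rose and *epcam* fell. Among 8 tested notochord genes *cav1* and *noto* fell and 0 rose, and 0 of 7 yolk and endoderm genes were called. Beside these, 7.1% of all tested probe sets were called higher and 6.12% lower. The part of these tissues in the members' changes was not tested.

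**Figure D5:**
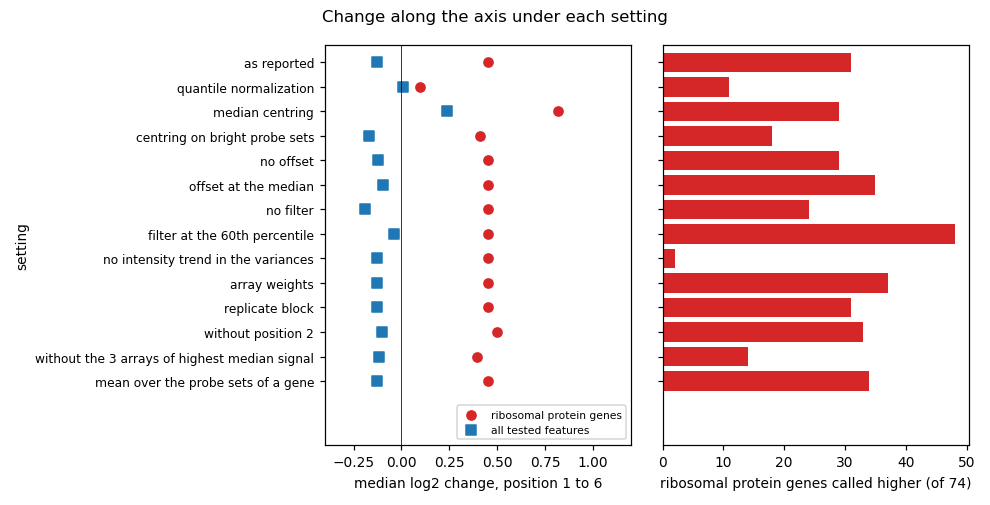
Left, median log2 change from position 1 to 6 of the ribosomal protein genes (circles) and of all tested features (squares) under each setting (rows); right, the number of the 74 genes called higher. The median of the genes lies near 0.45 in most settings, at 0.10 with quantile normalization and at 0.82 with median centring, and the calls run from 2 to 48. Settings that change only the filter or the variances cannot move this median. Of all tested probe sets 3.77% were called higher in the setting with 2 and 12.7% in that with 48.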

How the data were processed

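The members and lists were chosen with earlier results of these data known. The authors deposited 1 intensity for each probe set of an Affymetrix Zebrafish array; per the submitters' processing notes it is a MAS5 signal, with no version. As the values show, all 12 arrays share a mean of 150 once 2% are trimmed from both tails. The table holds 15617 probe sets, of which 115 controls were left out; 10795 of the rest carry 1 symbol, 135 several and 4572 none. RefSeq gene IDs gave the same symbol for all 74 members. Genome positions and sequences were not used here.

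Signals were raised by an offset of 12.2, the 25th percentile of all values, and put on the log2 scale, dropping probe sets whose mean was below the 30th percentile; 10851 were tested. A mean for each of the 6 positions was estimated in limma 3.58.1 (R 4.3.3; 6 residual and 12.8 prior degrees of freedom, variances following intensity). Tests were two-sided with Benjamini-Hochberg adjustment over all tested probe sets, and genes were called at 0.05. Counts at an unadjusted p under 0.05 are given without a share over all tested probe sets. "Rose" and "fell" refer to calls along the trend, whose change is from position 1 to position 6. Folds understate changes of dim genes, and 2 arrays per position limit the precision. Whether replicates came from separate embryos is not stated beyond the label, so p-values measure the spread between these samples. Paralog differences used 100000 permutations of the position labels. Genes were named by rule. Among members these were the 8 largest called rises, the 4 lowest changes, the 4 smallest other F test p-values, stalk genes and *rpsa*. Paralogs, members called at a step and members whose probe sets differ were named too. Of the other lists the leading called genes were named, except in the progenitor and the somite and muscle lists. Others named are examples chosen after the values were seen, from a structural group or, as with *cdh2*, *apoc1* and *mycla*, from another list. The alternatives are given in the closing section. The procedure was tested on simulated data.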

Additional observations from a re-analysis of the deposited data

How the results depend on the processing

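The alternatives that moved a count by over 1.5 times, or moved the median, were these. With quantile normalization the F test called 7 members, the trend 11, the ends 8 and the step from position 5 to 6 called 1, with a median of 0.10. With median centring the F test called 27, the ends 15 and the last step 4, with a median of 0.82. Centring on bright probe sets left 18 along the trend, 1 higher at the step from position 1 to 2 and 1 at the last step. The trend called 6.42% of all tested probe sets higher with this centring, against 7.1% as reported. With no offset the last step called 1, and with the offset at the median (50) the first step called 1. No filter left 7 in the F test. The filter at the 60th percentile, which tests fewer probe sets, called 48 along the trend, 44 between the ends and 1 at the first step. With that filter the share of all tested probe sets called higher along the trend was also larger, 12.7%. Shares for the F test, the ends and the steps under these settings are not given here. With variances that do not follow intensity, 0 were called by the F test, 2 along the trend, 2 between the ends and 0 at the last step. The trend then called 3.77% of all tested probe sets higher. Array weights gave 5 at the last step, and averaging probe sets gave 1. Without the 3 arrays of highest median signal (replicate 1 of position 2, replicate 2 of position 3, replicate 2 of position 4) the F test called 3, the trend 14 and the last step 1.

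Leaving out 1 array at a time gave 4 to 14 members for the F test, 13 to 38 higher along the trend, 7 to 30 between the ends, 0 to 3 at the last step, 0 to 1 higher and 0 to 1 lower at the first step, and medians of 0.38 to 0.52; a position left with 1 array borrows its spread from the rest. The cause of these moves was not tested. With quantile normalization 20 of the 74 members were below 0. Among the 29 named genes whose changes were recomputed these were *rpl3* (-0.022), *rpl39* (-0.035), *rpl7* (-0.076), *rps15* (-0.29) and *rps26* (-0.075). *rps19bp1* had -0.31 when its probe sets were averaged, and *rps15* ran from -0.065 (without replicate 1 of position 1) to 0.27 as arrays were left out; none of these values was called. Over the recomputed changes of 29 named genes, 623 kept direction and call, 73 lost the call, 22 gained it and 7 changed sign. With the replicate number as a block the trend called 31 members and the F test 13, and no count moved by over 1.5 times. Differences between replicates correlated between positions by -0.07 to 0.08 (15 pairs of positions). These correlations do not tell whether samples with the same replicate number share embryos or a batch. No fit without position 2 moved a count by over 1.5 times. With 2 arrays per position and no detection calls, changes near the SE of 0.14 to 0.37 could not be resolved.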

Other observations

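The genes for mitochondrial ribosomal proteins, which build the separate ribosome of the mitochondrion, also lay higher at the somite end. Their median change was above 0 under all 3 other scalings, of which both centrings only add 1 constant to all changes. The mean of their gene-centred log2 values was -0.16 and -0.32 at position 1 and 0.11 and 0.10 at position 5. At position 6 it was 0.49 and 0.12, so the second somite array lay close to the arrays of position 5. Of 59 tested, 13 rose along the trend and 0 fell with limma (26 and 0 at an unadjusted p under 0.05), beside 7.1% of all tested probe sets called higher, and their median log2 change was 0.58. With quantile normalization 10 of the 59 rose, with a median of 0.57, and without an intensity trend in the variances 7 rose. *mrpl54* rose from 152 ± 32.4 to 569 ± 89.2 (SD, n = 2) and *mrps23* from 141 ± 22.1 to 386 ± 145. The list was taken by symbol after the cytosolic values had been seen.

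The Myc transcription factors, known in other settings to raise expression of ribosomal protein and biogenesis genes, did not share a direction along the axis. *mycn* fell from 682 ± 321 in the center of the tailbud to 62.9 ± 28.1 in the somites (SD, n = 2), a log2 change of -3.01 ± 0.35 (SE, limma adjusted p = 5.35e-06). *mycb* rose from 43.8 ± 13.7 to 346 ± 71.8 (2.29 ± 0.26) and *myca* from 32.6 ± 14.0 to 120 ± 16.1 (2.00 ± 0.51). *mych*, named after its values were seen, rose from 103 to 426 (1.89 ± 0.26 SE, limma adjusted p = 4.03e-05), and *mycla* had -0.29 (adjusted p = 0.455). In that list of 13 tested genes, which also holds p53 pathway genes, 3 rose and 1 fell (4 and 1 at an unadjusted p under 0.05). All called genes of the list were Myc genes, *myca*, *mycb*, *mych* and *mycn*. Of all tested probe sets 7.1% were called higher and 6.12% lower, and of other bright ones 15% and 10.8%.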
